A study of Mus musculus with 4 samples.

Results

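The pocket proteins and the E2F transcription factors form the switch between G1 and S phase, and 10 of their genes were followed here in a line of mouse small cell lung cancer (SCLC) cells exposed to an inhibitor of CDK7. The genes were Rb1, Rbl1 and Rbl2, which encode the pocket proteins pRB, p107 and p130, the activator genes E2f1, E2f2 and E2f3, the repressor genes E2f6, E2f7 and E2f8, and Tfdp1, which encodes the dimerisation partner DP1. They were chosen by symbol, and all 10 of them were found among the 54232 genes of the count table and passed the filter on low counts with 16749 genes in all. RPP631 cells received either the vehicle DMSO or 100 nM YKL, which the series title describes as a CDK7 inhibitor, for 48 h, and bulk sequencing of total RNA gave 2 libraries per group. The labels give no genotype for the line, which is 1 cell line in both groups. RPP is the usual name of a mouse model in which Rb1, Trp53 and Rbl2 are deleted in the lung by Cre, and the labels do not say whether RPP631 carries these deletions. Counts per gene include exons outside a deleted segment and therefore neither show nor check such a deletion.

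In resting and early G1 cells, pocket proteins bind E2F–DP dimers and hold their target promoters silent. Cyclin D and cyclin E kinases, which CDK7 activates by phosphorylation, phosphorylate the pocket proteins and free the activator E2Fs. E2F1, E2F2 and E2F3 then switch on the genes for DNA synthesis and also the genes of E2F1, E2F7 and E2F8. The atypical repressors E2F7 and E2F8 bind DNA without a DP partner and shut the same targets down later in S phase. E2F6 lacks the pocket-binding and activation domains and works with a Polycomb complex. p107 and p130 also sit in the DREAM complex, whose MuvB core binds the CHR element of late cell cycle genes. Loss of pRB is a defining lesion of SCLC.

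Promoter sequence is shown because E2F genes are themselves E2F targets and because most of these transcripts had values on the same side of DMSO. RefSeq windows on GRCm38.p6, from 250 bases before to 50 bases after each annotated start, were at hand for 9 of the 10 members. They were searched on both strands for the 8-letter E2F words TTTCCCGC, TTTGGCGC, TTTGCCGC and TTTCGCGC, for the same words without their first T (7 letters, contained in the longer words), and for the CHR word TTTGAA. A match is a match of letters, not a proven binding site. An 8-letter E2F word stood in the windows of 5 of the 9 genes, Rbl1, E2f2, E2f3, E2f7 and Tfdp1, against 2.6% of 27025 genes with a window. A 7-letter word stood in 6 of 9, against 10.9%, and the CHR word in 4 of 9 (Rbl2, E2f2, E2f3 and E2f8), against 20.2%. These shares cover all genes with a window, expressed or not. Of the 11716 tested genes with a window, 450 held an 8-letter E2F word alone, 1570 the CHR word alone and 77 both. E2f2, E2f3 and Tfdp1 had more than a single window, which gives more room for a match. The CHR word of E2f2 lay only in its downstream window (chr4:136180532-136180831), of which 95 bases were exonic and 46 coding. The sequences below run 5′ to 3′ along the gene's own strand, with E2F and CHR words of either strand in capitals. They cover the 250 bases before the start of Rbl1 (chr2:157204535-157204784, minus strand), E2f3 (chr13:29986064-29986313, minus strand, the upstream one of its starts), E2f7 (chr10:110745189-110745438, plus strand), E2f8 (chr7:48881597-48881846, minus strand) and Tfdp1 (chr8:13338501-13338750, plus strand). For E2f2 the 30 bases that end with its E2F word, 40 to 47 bases after the start, are given (chr4:136172291-136172320, plus strand).
Rbl1: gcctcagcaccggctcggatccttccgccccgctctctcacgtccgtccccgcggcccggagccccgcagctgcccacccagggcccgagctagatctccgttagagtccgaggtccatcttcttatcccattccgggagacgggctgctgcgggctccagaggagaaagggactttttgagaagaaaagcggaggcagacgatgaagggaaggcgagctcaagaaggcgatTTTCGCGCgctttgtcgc
E2f2: atccgaatttggcggcatatagTTTGGCGC
E2f3: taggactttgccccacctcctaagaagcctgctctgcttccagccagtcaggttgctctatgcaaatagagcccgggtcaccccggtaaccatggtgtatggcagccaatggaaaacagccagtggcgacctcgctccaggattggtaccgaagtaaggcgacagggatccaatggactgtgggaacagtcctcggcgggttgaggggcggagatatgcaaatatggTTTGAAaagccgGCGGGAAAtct
E2f7: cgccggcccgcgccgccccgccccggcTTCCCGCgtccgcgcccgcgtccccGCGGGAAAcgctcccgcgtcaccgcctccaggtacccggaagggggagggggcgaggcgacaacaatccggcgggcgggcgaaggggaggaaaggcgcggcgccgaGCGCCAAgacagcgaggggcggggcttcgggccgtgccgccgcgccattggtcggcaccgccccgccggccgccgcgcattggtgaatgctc
E2f8: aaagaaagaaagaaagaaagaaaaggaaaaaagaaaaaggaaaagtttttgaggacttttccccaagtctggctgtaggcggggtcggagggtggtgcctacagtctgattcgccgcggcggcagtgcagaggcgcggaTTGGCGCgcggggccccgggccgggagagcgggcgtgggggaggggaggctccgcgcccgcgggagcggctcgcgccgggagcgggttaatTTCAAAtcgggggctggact
Tfdp1: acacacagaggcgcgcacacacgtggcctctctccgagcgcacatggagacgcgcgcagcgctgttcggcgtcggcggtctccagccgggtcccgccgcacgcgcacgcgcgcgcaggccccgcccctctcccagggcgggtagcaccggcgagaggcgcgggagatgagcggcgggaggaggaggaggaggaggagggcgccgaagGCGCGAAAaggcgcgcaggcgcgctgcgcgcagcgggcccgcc
The word of Rbl1 lay 18 to 11 bases before its start and that of E2f3 11 to 4 bases before it, next to a CHR word. E2f7 held 3 words of 7 letters, one of them extended to 8, between 223 and 86 bases before the start, which was the most of any member. E2f8 held a 7-letter word 111 to 105 bases and a CHR word 20 to 15 bases before its start. The E2f1 window lay wholly inside exons of the GENCODE M21 annotation, 188 of its bases coding, so it does not show the region upstream of the longest E2f1 transcript.

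No member passed the test for a difference between YKL and DMSO, although in 8 of the 10 the groups did not overlap, as in 52.3% of all genes. By edgeR's quasi-likelihood test with Benjamini-Hochberg adjustment over all 16749 genes, 0 of the 10 were called at an adjusted p under 0.05, against 3.54% of all genes tested. At an unadjusted p under 0.05 there were 4, against 21.2% of all genes: E2f2, E2f6 and E2f7 were higher, against 11.3%, and Rbl1 was lower, against 9.9%. DESeq2 called 1, E2f7, against 11.6% of the genes it tested. In 7 members both YKL libraries lay above both DMSO libraries, as in 27% of all genes, and in Rbl1 both lay below, as in 25.3%. The median log2 fold change of the members was 0.37, and 9 of the 10 values were above 0, beside a median of -1e-04 and 50% above 0 over all genes tested. Because the members share regulators, these counts are not independent observations. Levels are relative to the other transcripts, so a change in RNA per cell common to all genes would not show. A higher value therefore need not mean more transcript per cell. A different share of cells in a cell cycle phase and a different level within cells cannot be told apart.

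**Figure D1:**
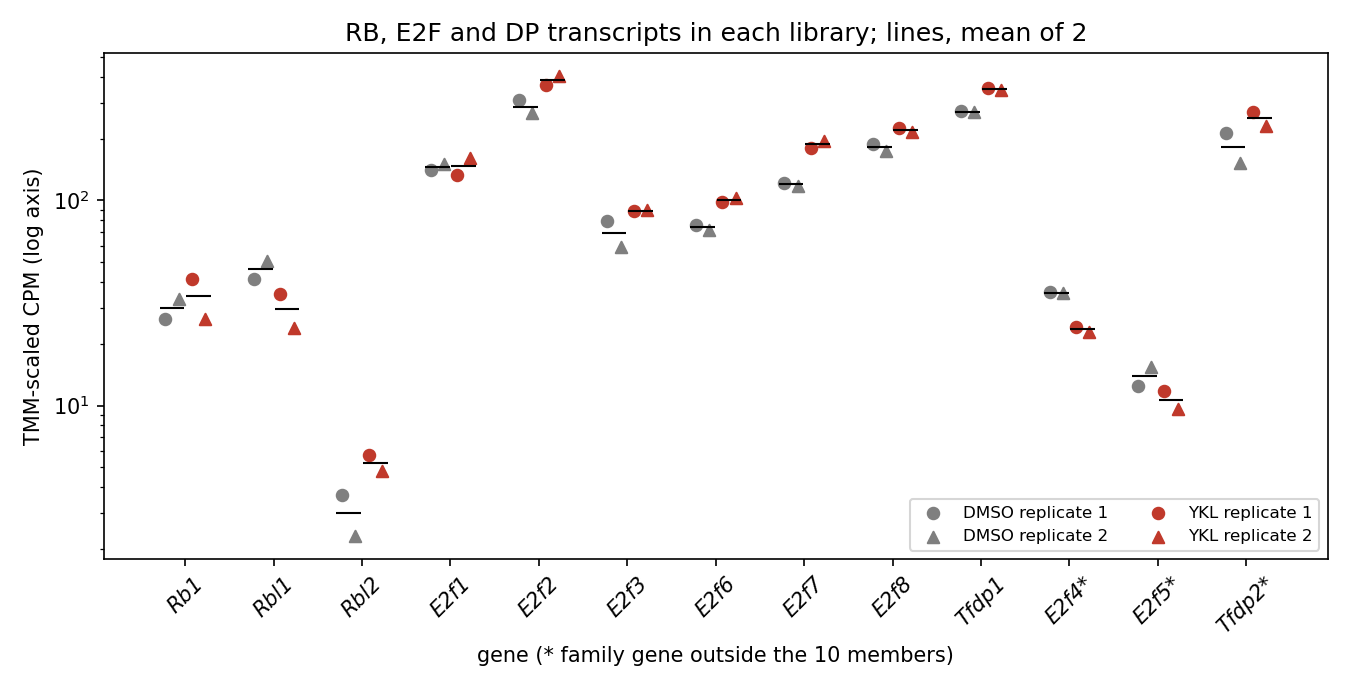
TMM-scaled CPM (log axis) of the 10 members and 3 further family genes in each of 4 libraries, grey for DMSO and red for YKL, with black lines at the mean of 2 libraries. The red points lie above the grey ones in E2f2, E2f3, E2f6, E2f7, E2f8, Tfdp1 and Rbl2, below them in Rbl1, and among them in Rb1 and E2f1.

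Among the pocket protein genes, Rbl1 and Rbl2 differed in opposite directions and Rb1 showed no separation. Rbl1 (ENSMUSG00000027641, chromosome 2, 157145893 to 157204534, mm10) encodes p107, the pocket protein most abundant in cycling cells and itself an E2F target. It had 41.5 and 50.8 CPM (counts scaled by TMM to a common library total) in DMSO replicates 1 and 2 and 35.2 and 23.8 CPM in YKL replicates 1 and 2. Both YKL libraries were below both DMSO libraries, with a log2 fold change of -0.65 ± 0.24 (standard error; 95% interval -1.18 to -0.11; adjusted p = 0.164, edgeR). The YKL libraries stood 1.48-fold apart, so the size depended on which was used, from -0.40 without YKL replicate 2 to -0.95 without YKL replicate 1. Rb1 (ENSMUSG00000022105, chromosome 14, 73183673 to 73325822) had 26.5 and 33.3 CPM in DMSO and 41.6 and 26.5 CPM in YKL. Its groups overlapped, its YKL libraries stood 1.57-fold apart, more than those of any other member, and its log2 fold change of 0.19 ± 0.26 turned to -0.17 without YKL replicate 1. Rbl2 (ENSMUSG00000031666, chromosome 8, 91070057 to 91123844), the gene of p130, was the scarcest member, with raw counts of 123 and 73 for DMSO and of 175 and 154 for YKL. This came to 3.68 and 2.32 CPM in DMSO and 5.71 and 4.78 CPM in YKL, with no overlap and a log2 fold change of 0.81 ± 0.42 (95% interval -0.14 to 1.75; adjusted p = 0.314, edgeR). It was 0.48 without DMSO replicate 2 and 1.18 without DMSO replicate 1. Exons of both Rb1 and Rbl2 overlap those of an antisense gene that was counted more often. Rbl2 shares 693 of its 7558 exonic bases with Aktip, which had 6220 counts over the 4 libraries against 525 for Rbl2. Rb1 shares 488 of 6015 bases with Rcbtb2 (8900 counts against 4063) and 408 with the less counted Lpar6. The strand setting of the counting is not given in the sources used here, and the part of these overlaps in the values was not tested.

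Set against each other within a library, where the scaling cancels, the pocket protein transcripts differed in makeup between the groups. Per length, Rbl1 made up 58.6% and 59.2% of the summed RPKM (CPM per kilobase of merged exons) of the 3 genes in DMSO replicates 1 and 2, and 43.3% and 44.1% in YKL replicates 1 and 2. Rb1 took 37.3% and 38.6% with DMSO, and 51.1% and 48.9% with YKL. Neither share overlapped between the groups, although the CPM of Rbl1 and Rb1 stood 1.48-fold and 1.57-fold apart between the YKL libraries. By CPM, 52.3% of all genes did not overlap either. The shares are parts of a whole, so a lower share of Rbl1 raises that of Rb1, whose own CPM overlapped. The antisense exon overlaps of Rb1 and Rbl2 apply to these shares as well. The shares are a description of the 4 libraries and were not tested.

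Of the activator genes, E2f2 and E2f3 showed no overlap between the groups, as in 52.3% of all genes, and E2f1 showed one. The difference between the genes was not tested. E2f1 (ENSMUSG00000027490, chromosome 2, 154559407 to 154569892), the best known activator, had 140.2 and 151 CPM in DMSO and 133 and 162 CPM in YKL. The groups overlapped, and the log2 fold change of 0.02 ± 0.19 had a 95% interval of -0.39 to 0.43, which leaves room for a change of up to about that size in either direction. E2f2 (ENSMUSG00000018983, chromosome 4, 136172394 to 136196057), a closely related activator, had 308 and 266 CPM in DMSO and 365 and 404 CPM in YKL. All YKL values lay above the DMSO values, 1.34-fold on average (log2 fold change 0.42 ± 0.18, adjusted p = 0.22, edgeR). E2f3 (ENSMUSG00000016477, chromosome 13, 29906575 to 29986063), whose alternative starts give an activating and a shorter isoform that counts per gene do not separate, had 79.5 and 59.1 CPM in DMSO and 88.5 and 89.7 CPM in YKL. Here the DMSO libraries were further from each other than DMSO replicate 1 was from YKL (log2 fold change 0.36 ± 0.20, 0.13 without DMSO replicate 2 and 0.60 without DMSO replicate 1, adjusted p = 0.337, edgeR). Within a library, the RPKM ratio of E2f2 to E2f1 came to 1.42 and 1.14 for DMSO and to 1.77 and 1.61 for YKL, whereas that of E2f2 to E2f3 came to 4.31 and 5.01 for DMSO and to 4.59 and 5.01 for YKL.

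In all 3 repressor genes the YKL libraries lay above the DMSO libraries, an order seen in 27% of all genes. E2f7 (ENSMUSG00000020185, chromosome 10, 110745439 to 110787384) had 122 and 118 CPM in DMSO and 180.1 and 196 CPM in YKL. The mean was 120.1 ± 2.75 CPM in DMSO and 188 ± 11.2 CPM in YKL (SD, n = 2 in each group), a 1.56-fold difference, while replicates stood 1.03-fold apart in DMSO and 1.09-fold in YKL. Its log2 fold change of 0.65 ± 0.18 (95% interval 0.25 to 1.04) came closest to a call of all members (adjusted p = 0.0771, edgeR), and DESeq2 called it (adjusted p = 0.0159). E2f8 (ENSMUSG00000046179, chromosome 7, 48866429 to 48881596), its atypical partner, had 189 and 175 CPM in DMSO and 224 and 215 CPM in YKL. The groups did not overlap, but the difference was smaller, at a log2 fold change of 0.27 ± 0.17 (adjusted p = 0.411, edgeR). The RPKM ratio of E2f7 to E2f8 accordingly came to 0.390 and 0.409 for DMSO and to 0.485 and 0.550 for YKL. E2f8 shares 610 of 5443 exonic bases with Gm2788 on the other strand (280 counts against 25632), and E2f7 shares 86 bases with 1700020G17Rik (10 counts against 19638). E2f6 (ENSMUSG00000057469, chromosome 12, 16810963 to 16839742), the Polycomb-linked repressor, had 76.1 and 71.6 CPM in DMSO and 98.3 and 103 CPM in YKL (log2 fold change 0.44 ± 0.18, adjusted p = 0.19, edgeR). Its replicates stood 1.06-fold apart in DMSO and 1.04-fold in YKL, and its log2 fold change was 0.37 to 0.49 when any 1 library was left out.

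Tfdp1 (ENSMUSG00000038482, chromosome 8, 13338751 to 13378448), the partner that E2F1 to E2F6 need to bind DNA, had 272 and 269 CPM in DMSO and 355 and 344 CPM in YKL. Replicates stood 1.01-fold apart in DMSO and 1.03-fold in YKL, and the log2 fold change was 0.37 ± 0.17 (95% interval -0.02 to 0.76; adjusted p = 0.254, edgeR). The 3 family genes outside the list were Tfdp2, E2f4 and E2f5. Tfdp2, the other DP gene, had 213 and 152 CPM in DMSO and 271 and 232 CPM in YKL (log2 fold change 0.46 ± 0.21, adjusted p = 0.245, edgeR; 0.73 and an adjusted p = 0.047 without DMSO replicate 1, 0.20 and an adjusted p = 0.644 without DMSO replicate 2). The genes of the pocket-bound repressors E2F4 and E2F5 lay on the other side. E2f4 had 35.6 and 35.2 CPM in DMSO and 24.3 and 22.9 CPM in YKL, a log2 fold change of -0.58 ± 0.21 (adjusted p = 0.144, edgeR). E2f5 had 12.4 and 15.5 CPM in DMSO and 11.8 and 9.62 CPM in YKL (log2 fold change -0.38 ± 0.30, and -0.24 without YKL replicate 2).

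**Figure D2:**
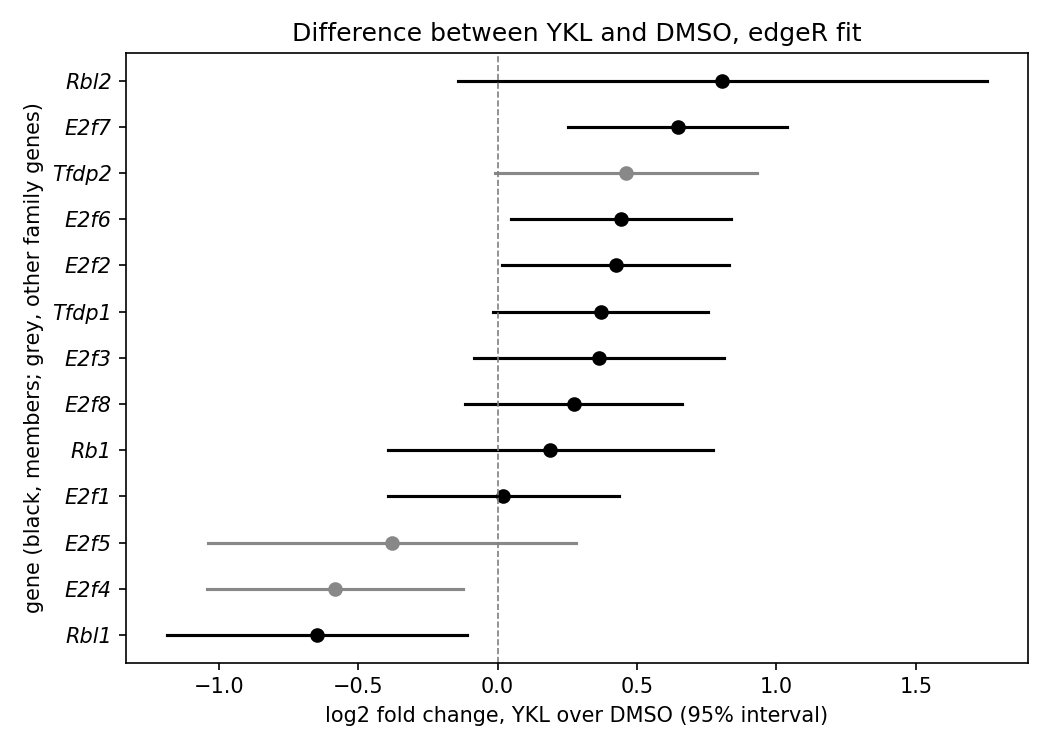
Log2 fold change of YKL over DMSO (points) with 95% intervals from the edgeR fit (lines) for the 10 members (black) and 3 further family genes (grey), ordered by size. The intervals of E2f7, E2f6 and E2f2 lie above 0 and those of Rbl1 and E2f4 below it before adjustment, and none of the 13 genes was called after it.

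Per length, Tfdp1 was the most abundant member in DMSO at 73.7 ± 0.738 RPKM, followed by E2f2 at 58.8 ± 5.99, E2f1 at 46.1 ± 2.39 and E2f8 at 33.4 ± 1.84 RPKM (SD, n = 2). E2f7, E2f6 and E2f3 came next at 13.3 ± 0.305, 13 ± 0.561 and 12.8 ± 2.65 RPKM. E2f3 was the highest of these in DMSO replicate 1 and the lowest in DMSO replicate 2. Rbl1 (7.7 ± 1.1 RPKM), Rb1 (4.97 ± 0.796) and Rbl2 (0.397 ± 0.127) were at the bottom. In YKL the order at the top was the same, with Tfdp1 at 95.2 ± 2.06, E2f2 at 78.8 ± 5.7, E2f1 at 46.8 ± 6.42 and E2f8 at 40.4 ± 1.2 RPKM, the last pair about 1 SD of E2f1 apart. Rb1 (5.66 ± 1.77) now stood above Rbl1 (4.92 ± 1.34) within each library, at 6.912 against 5.865 RPKM in YKL replicate 1 and 4.412 against 3.973 RPKM in YKL replicate 2. Summed over the 8 E2F genes, the 3 activators held 59.5% and 58.3% of RPKM in DMSO and 58.4% and 61.6% in YKL, so their joint share overlapped between the groups. E2f4 and E2f5 together held 10.5% and 11.9% with DMSO and 7.23% and 6.03% with YKL, and E2f7 with E2f8 held 23.5% and 23.3%, then 26.8% and 25%, in the same order. Merged exon length overstates the length of the transcripts in use by a different amount for each gene, which shifts levels between genes but not between libraries.

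**Figure D3:**
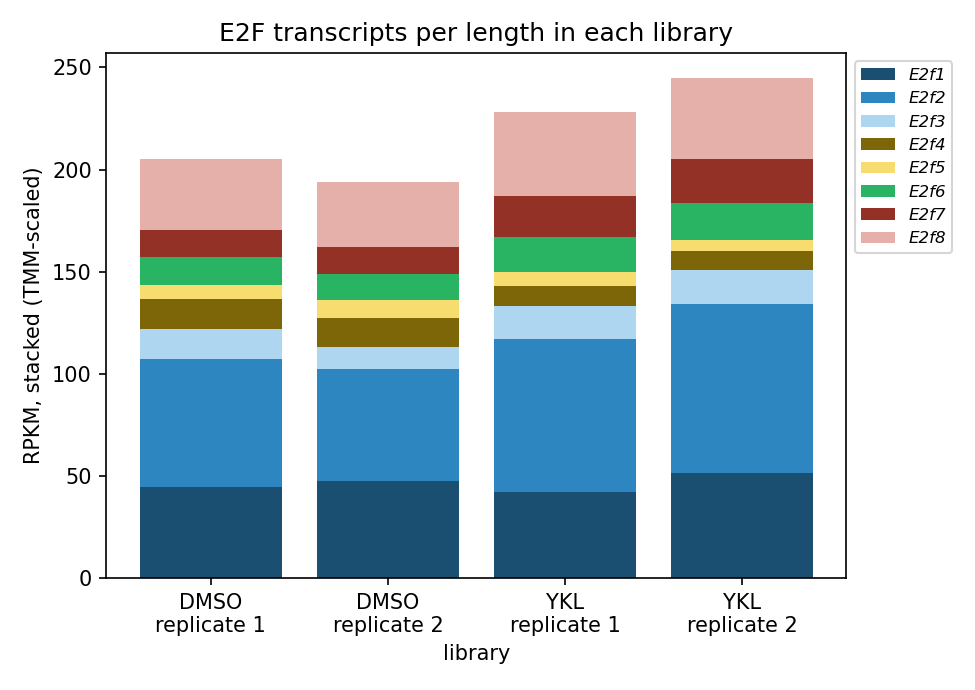
RPKM of the 8 E2F genes stacked for each of the 4 libraries. The sum was 205 and 194 RPKM in DMSO replicates 1 and 2 and 228 and 245 RPKM in YKL replicates 1 and 2, with E2f2 and E2f1 the widest bands in every library.

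The targets and partners of these factors were taken from lists written for this comparison, with earlier results of these data known. Of 45 textbook targets of the activator E2Fs in DNA synthesis and at the G1/S transition, 5 rose and 0 fell, with a median log2 fold change of 0.22 and 29 of 45 values above 0. Over all genes tested, 2.1% rose and 1.44% fell. Ccne1, which encodes cyclin E1, had 77.8 and 79 CPM in DMSO and 152 and 174 CPM in YKL (adjusted p = 0.0217, edgeR). The licensing gene Cdc6 had 129.7 and 126 CPM in DMSO and 234 and 254 CPM in YKL (adjusted p = 0.0273, edgeR). Also higher, and named after their values were seen, were the Polycomb methyltransferase gene Ezh2 and the MYB factor gene Mybl2, at log2 fold changes of 0.75 and 0.78. None of the 5 remained called without YKL replicate 1 or without YKL replicate 2, and without DMSO replicate 2 edgeR called 3 targets higher and 2 lower. At an unadjusted p under 0.05, 11 of the targets were higher and 3 lower, beside 11.3% and 9.9% of all genes tested. The 3 lower ones, named after their values were seen and not called, were Gins1 of the replicative helicase, the checkpoint kinase gene Chek1 and the thymidine kinase gene Tk1, at log2 fold changes of -0.73, -0.52 and -0.42.

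Of 29 late cell cycle genes that MuvB complexes bind, 16 fell and 0 rose, beside 1.44% and 2.1% of all genes tested. The list had a median log2 fold change of -1.01, with all 29 values below 0. In 27 of the 29 genes both YKL libraries lay below both DMSO libraries, an order seen in 25.3% of all genes. Ube2c, the E2 enzyme gene of the anaphase-promoting complex, had 292 and 227 CPM in DMSO and 77.7 and 68.6 CPM in YKL (adjusted p = 0.00795, edgeR). Cdc20, an activator of that complex, had 288 and 197 CPM in DMSO and 75.2 and 78.4 CPM in YKL, and Ccnb2, a mitotic cyclin gene, 199 and 164 CPM in DMSO and 70.9 and 54.7 CPM in YKL (adjusted p = 0.0102 and 0.0105, edgeR). This list had 10 calls without YKL replicate 1, 2 without YKL replicate 2 and 25 without DMSO replicate 2. The share of cells in each phase was not measured.

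Split by promoter word, the G1/S targets without an 8-letter E2F word had the higher median, and late genes with and without the CHR word were called lower. These differences were not tested. A window was at hand for 36 of the 45 G1/S targets and 24 of the 29 late genes. The calls below were all higher for the G1/S targets and all lower for the late genes. Of all 11716 tested genes with a window, 2.14% were called higher and 1.52% lower. An 8-letter E2F word stood in the windows of 18 of 36 G1/S targets, with 2 called and a median log2 fold change of -0.05, and was not found in 18, with 2 called and a median of 0.32. With the 7-letter word, a split chosen after seeing the data, the medians were closer, 0.22 for the 25 targets that held it and 0.33 for the 11 that did not. The CHR word stood in 18 of 24 late cell cycle genes, with 9 called and a median of -1.02, and was not found in 6, with 3 called and a median of -0.89. Among the 9 members with a window, the 5 with an 8-letter word had a median log2 fold change of 0.37 and the 4 without one a median of 0.36. By the 7-letter word the medians were 0.37 for the 6 that held it and 0.44 for the 3 that did not (Rbl2, E2f1 and E2f6). By the CHR word they were 0.39 for the 4 that held it and 0.37 for the 5 that did not. The E2f1 window lay inside exons, so its upstream region was not searched.

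**Figure D4:**
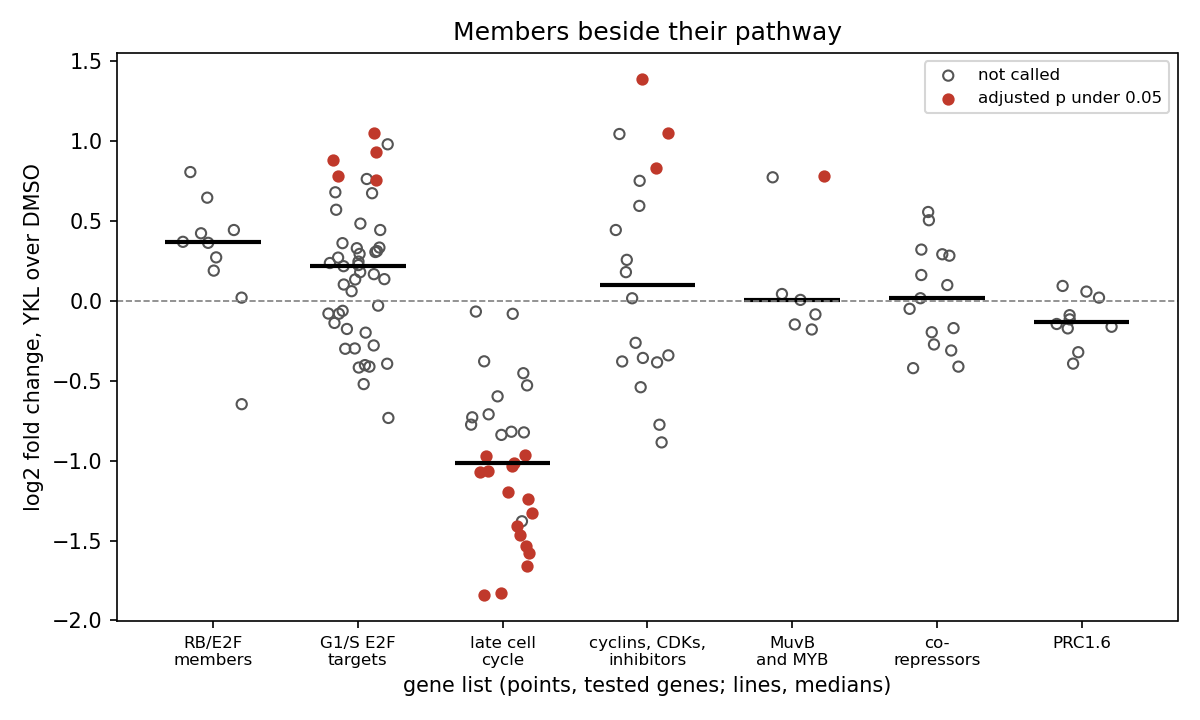
Log2 fold change of YKL over DMSO for the tested genes of 7 lists (points, red where the edgeR adjusted p was under 0.05) with the median of each list (black line). The members have a median of 0.37 with no call, the G1/S targets a median of 0.22 with 5 calls, and the late cell cycle genes a median of -1.01 with 16 calls.

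Upstream of the pocket proteins, 18 of 20 G1 cyclin, kinase and inhibitor genes could be tested. Of these 3 rose and 0 fell, beside 2.1% and 1.44% of all genes tested. Besides Ccne1 the genes that rose were Cdkn1a and Cdkn1c, inhibitor genes of the CIP family. Other inhibitor genes, named here after their values were seen, were not called. Cdkn1b of the same family had a log2 fold change of -0.38 (adjusted p = 0.337, edgeR). Of the INK4 family, Cdkn2a had 0.75 (adjusted p = 0.0541, edgeR), while Cdkn2b, Cdkn2c and Cdkn2d had negative values. Cdkn1a, which encodes p21, had 318 and 499.8 CPM in DMSO and 1045 and 1097 CPM in YKL, and Cdkn1c, which encodes p57, had 99.2 and 104 CPM in DMSO and 194 and 168 CPM in YKL (adjusted p = 0.0219 and 0.0399, edgeR). Neither call held without YKL replicate 1 (adjusted p = 0.0587 and 0.268) or without YKL replicate 2 (0.0887 and 0.156, edgeR), nor with total count scaling, and that of Cdkn1c was also lost with upper quartile scaling and with a prior that is not robust. The D cyclin and kinase genes, named after their values were seen, were unequal in level: Ccnd1 had 0.585 ± 0.0189 CPM in DMSO and 0.461 ± 0.0512 in YKL, Ccnd3 17 ± 5.49 and 35.1 ± 3.19 CPM (adjusted p = 0.0636, edgeR), and Cdk4 435 ± 51.4 and 363 ± 74.6 CPM, while Ccnd2 and Cdk6 were too low to be tested. Of the 7 MuvB and MYB genes, 1 rose, which was Mybl2 again, from 102 and 89.1 CPM in DMSO to 166 and 163 CPM in YKL (adjusted p = 0.0469, edgeR), a call that held without DMSO replicate 1 and was lost without any of the other libraries. Of 15 corepressor genes none was called by edgeR. At an unadjusted p under 0.05, 1 was higher and 1 lower, beside 11.3% and 9.9% of all genes tested. The most abundant of the 15 were Rbbp7 and Dnmt1, at log2 fold changes of 0.29 and -0.41. Of the 10 partners of E2F6 in the Polycomb complex PRC1.6 none was called by edgeR and none had an unadjusted p under 0.05, and the most abundant, Mga and Rybp, had log2 fold changes of -0.39 and -0.09. Of 15 germline genes listed as targets of repression by E2F6 and PRC1.6 in somatic cells only 6 had enough counts to be tested. None of the 6 was called by edgeR, and 2 were higher at an unadjusted p under 0.05, beside 11.3% of all genes tested. The 2 most abundant were Tdrkh, with 87.9 and 93.7 CPM in DMSO and 135 and 140.4 CPM in YKL (adjusted p = 0.092, edgeR), which was thus not silent in either group and which DESeq2 called (adjusted p = 0.0276), and Smc1b, at 1.44 ± 0.169 CPM in DMSO and 0.96 ± 0.304 CPM in YKL.

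The authors' deposited table of their DESeq2 comparison lists 4428 of 15936 genes (27.8%) at an adjusted p under 0.05. In the authors' deposited table, 6 of the 10 members pass that threshold, 5 of them higher in YKL (E2f7, E2f6, Tfdp1, Rbl2 and E2f2) and Rbl1 lower. The authors' deposited table gives log2 fold changes of 0.60 for E2f7 and -0.62 for Rbl1, with errors of 0.15 and 0.19, and -0.0019 for E2f1. Its errors are smaller than those of the refit, 0.19 and 0.28 for the first pair by DESeq2 on the 4 libraries, while the fold changes are close. The settings behind that table are not given in the sources used here.

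The libraries held 29817387 to 34189709 assigned counts. The labelled cell type was met by its markers: the 10 neuroendocrine and epithelial markers were all tested and summed to 4482 to 5873 CPM, with 1 called, Nkx2-1, which was lower in YKL. The mitochondrial genome gave 1.01% and 1.14% of counts with DMSO and 1.25% and 1.78% with YKL, and the part of this in the results was not tested. Markers of other cells summed to 12.9 and 27.3 CPM in DMSO and 45.4 and 19 CPM in YKL for 7 fibroblast genes (mainly Pdgfra, with group means of Col1a2, Col3a1 and Lum under 0.1 CPM). The sums were 3.35 and 5.46 CPM in DMSO and 8.78 and 5.56 CPM in YKL for 7 leukocyte genes, of which Cd3e was at 0 and Ptprc was called higher at 0.765 CPM. They were 56.3 and 75.2 CPM in DMSO and 62.3 and 44.2 CPM in YKL for 5 endothelial genes, nearly all from Vwf. The labels do not say whether replicates were separate cultures, and p-values therefore reflect no more than the spread among these libraries, which may be technical.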

How the data were processed

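Per the submitters' processing notes, STAR 2.5.2b (genome mm10) and featureCounts were used. Values in the main deposited table are raw counts of each gene in each library, beside merged exon lengths. A second deposited table gives the authors' DESeq2 comparison: mean normalized signal, log2 fold change, error, test score, p-value and its adjusted form. It was used only as quoted. Symbols came from the deposited gene annotation by Ensembl ID.

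Raw counts were tested with edgeR 4.0.16 in R 4.3.3: filterByExpr (minimum count 10, minimum total 15), TMM scaling, then a quasi-likelihood fit with robust prior and 2 residual degrees of freedom. Calls needed an adjusted p under 0.05. The standard error is the size of the log2 fold change over the square root of F. CPM uses TMM-scaled library sizes, and RPKM divides it by merged exon length. The biological coefficient of variation common to all genes was 25.1%. The chi-square per degree of freedom between replicates was 86.6 for DMSO and 37.1 for YKL, so the libraries within each group were not copies of one another. The procedure was tested on simulated data with planted changes larger than that of any member. This does not show how often changes of the members' size would be called. Promoter sequences are from RefSeq (GRCm38.p6), and exons around them from GENCODE M21. The figures were drawn with matplotlib 3.10.9.

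The members and lists were chosen with earlier results of these data known. The rule named all members, E2f4, E2f5 and Tfdp2, the 3 called genes with the smallest p in each direction of each pathway list, and the 2 most abundant genes of a list with no call. Some genes of the lists are not reported here. Other settings tried were DESeq2 1.42.0, scaling by RLE, upper quartile or total count, a filter of 5 CPM in 2 libraries or none, a block for the replicate number, a prior that is not robust, and leaving out each library.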

Additional observations from a re-analysis of the deposited data

How the results depend on the processing

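Each result was recomputed under 12 alternatives. Of 334 values for 28 named genes, 304 kept their direction and their side of the threshold, 23 lost their call, 3 gained one and 4 changed sign. The sign changes were those of E2f1, at -0.0066 with no filter, -0.03 without DMSO replicate 1 and -0.13 without YKL replicate 2, and of Rb1, at -0.17 without YKL replicate 1. With 1 library left out, E2f1 ran from -0.13 to 0.16 and Rb1 from -0.17 to 0.47. No alternative but DESeq2 called a member, and DESeq2 called 1. With any 1 library left out the count of members called by edgeR was 0. Over all genes the 593 calls became 169 with total count scaling, 331 with upper quartile scaling, 1740 with no filter, 236 with no robust prior, 1599 by DESeq2 and 71 to 2453 with 1 library left out (1343 without DMSO replicate 1, 2453 without DMSO replicate 2, 106 without YKL replicate 1, 71 without YKL replicate 2). The 5 calls among activator E2F targets became 2 with total count scaling, 3 with upper quartile scaling, 8 with no filter, 2 with no robust prior and 0 to 10 with 1 library left out. The 16 calls among late cell cycle genes became 10 with total count scaling and 2 to 25 with 1 library left out. The cause was not tested. With the replicate block 1387 genes, 0 members, 8 activator targets and 22 late genes were called. The labels do not say that a number marks a shared culture or day, and the difference between DMSO libraries correlated with that between YKL libraries at 0.125 across genes. With a library left out, the lone sample is taken to vary like the other group. No scaling moved the median of all genes by more than 0.0223.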

Other observations

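Over all 11716 tested genes with a promoter window, grouped after the data were seen, the 450 with an 8-letter E2F word and no CHR word had a median log2 fold change of 0.08, with 58.7% of values above 0. Of them, 3.33% were called higher and 1.11% lower in YKL. The 1570 genes with the CHR word and no E2F word had a median of -0.05, with 45.4% of values above 0, and 1.72% were called higher and 2.42% lower. The 9619 genes with neither word had a median of 0.01, with 50.8% above 0, and 2.16% higher and 1.39% lower. The 77 genes with both words had a median of 0.04. The ranges between quartiles of the E2F word and CHR word groups, -0.25 to 0.40 and -0.40 to 0.31, overlapped for most of their length, and the difference between them was not tested.

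Cdk7, the gene of the kinase that the series title names as the target, had 21.2 and 17.4 CPM in DMSO and 11 and 11.6 CPM in YKL (log2 fold change -0.78 ± 0.27, adjusted p = 0.138, edgeR). Its partner genes in the kinase trimer, Ccnh and Mnat1, had log2 fold changes of 0.26 and -0.54, and neither was called.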
